A study of Mus musculus with 9 samples.

Results

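The genes described here encode the secreted Wnt ligands, their Frizzled receptors and LRP co-receptors, the R-spondins that raise receptor levels, the secreted Wnt antagonists, and Axin2 and Lef1, which act inside the cell. They were chosen by name: every symbol of the deposited table that begins with Wnt, Fzd, Sfrp, Dkk or Rspo followed directly by a digit, together with Frzb, Wif1, Axin2, Lef1, Lrp5 and Lrp6. This took 48 of the 25239 genes of the table: 19 ligands, 4 R-spondins, 10 Frizzled receptors, 2 LRP co-receptors, 10 secreted antagonists, Axin2, Lef1 and the antisense transcript Fzd10os. A mean of at least 1 FPKM (reads scaled to gene length and library depth) over the 9 libraries was reached by 26 of them.

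The libraries were made from polyadenylated RNA of primary cortical astrocytes, glial cells grown from the cerebral cortex of mouse pups at postnatal day 4. All cultures grew on poly-D-lysine in medium with horse and fetal bovine serum. The H2O2 day 1 group has 3 libraries from cultures that spent 3 h in 200 µM hydrogen peroxide, an oxidant, and were harvested 24 h after it was washed off. The H2O2 day 3 group has 3 libraries from cultures harvested 72 h after the same exposure. The control group has 3 libraries from untreated cultures, for which the labels give no harvest time. Time in culture therefore cannot be told apart from peroxide in the comparisons with control, nor from time after exposure between the days. Neither the strain nor the sex of the pups, nor a step that purifies the astrocytes, is given in the labels. Nor do they say that the 3 libraries of a group are separate cultures; if they are not, the p-values reflect technical spread. The library totals by which the FPKM values were scaled were worked out from those values. They were 23032594 to 27850348 reads in day 1 libraries, 30545004 to 36749577 in day 3 libraries and 30278210 to 38414668 in control libraries, so the day 1 group was the most shallow. The ribosomal RNA gene Rn45s took 7.68% to 11.9% of the reads.

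Wnt proteins are lipid-modified ligands that act on nearby cells. In the beta-catenin branch a ligand brings together a Frizzled receptor and LRP5 or LRP6, the complex that destroys beta-catenin is switched off, and beta-catenin enters the nucleus to act with TCF/LEF factors. Other branches run through Frizzled without beta-catenin and steer cell polarity and movement. Secreted proteins tune the input: the SFRP family and WIF1 bind Wnts themselves, DKK1 and its close relatives block the LRP co-receptors, and R-spondins keep receptors at the surface. In the brain, astrocytes both make and receive Wnts, and WNT7A and WNT7B are known as signals to brain endothelium and to oligodendrocyte precursors.

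The receptor side was broad and the ligand side narrow. Over the 9 libraries all 10 Frizzled genes reached the mean of 1 FPKM, as did both LRP genes, against 7 of 19 ligands, 1 of 4 R-spondins and 4 of 10 antagonists. In control alone the count of antagonists was 5, with Sfrp5 added. By group mean, Frizzled genes at 1 FPKM numbered 9 on day 1, without Fzd9, 9 on day 3, without Fzd10, and 10 in control. The most abundant gene of all 48 was Dkk3, a divergent Dickkopf family member, at 52.1 ± 1.91 FPKM in control (SD, n = 3, as for all means here), followed by Sfrp1, a soluble Wnt-binding protein, at 37.1 ± 0.954 FPKM. Fzd3 led the receptors in control at 28.6 ± 0.373 FPKM, ahead of Fzd2 at 25.5 ± 1.33 FPKM, and the control libraries of these 2 genes did not overlap. On day 3 Fzd2 led instead, at 27.2 FPKM against 25.8 FPKM for Fzd3. Wnt5b led the ligands at 20.3 ± 1.81 FPKM, ahead of Wnt9a at 12.1 ± 0.457 FPKM and Wnt5a at 10.8 ± 0.184 FPKM. FPKM is a level per length, so the order of genes rests on the gene lengths used, from an annotation that the sources used here do not give.

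**Figure D1:**
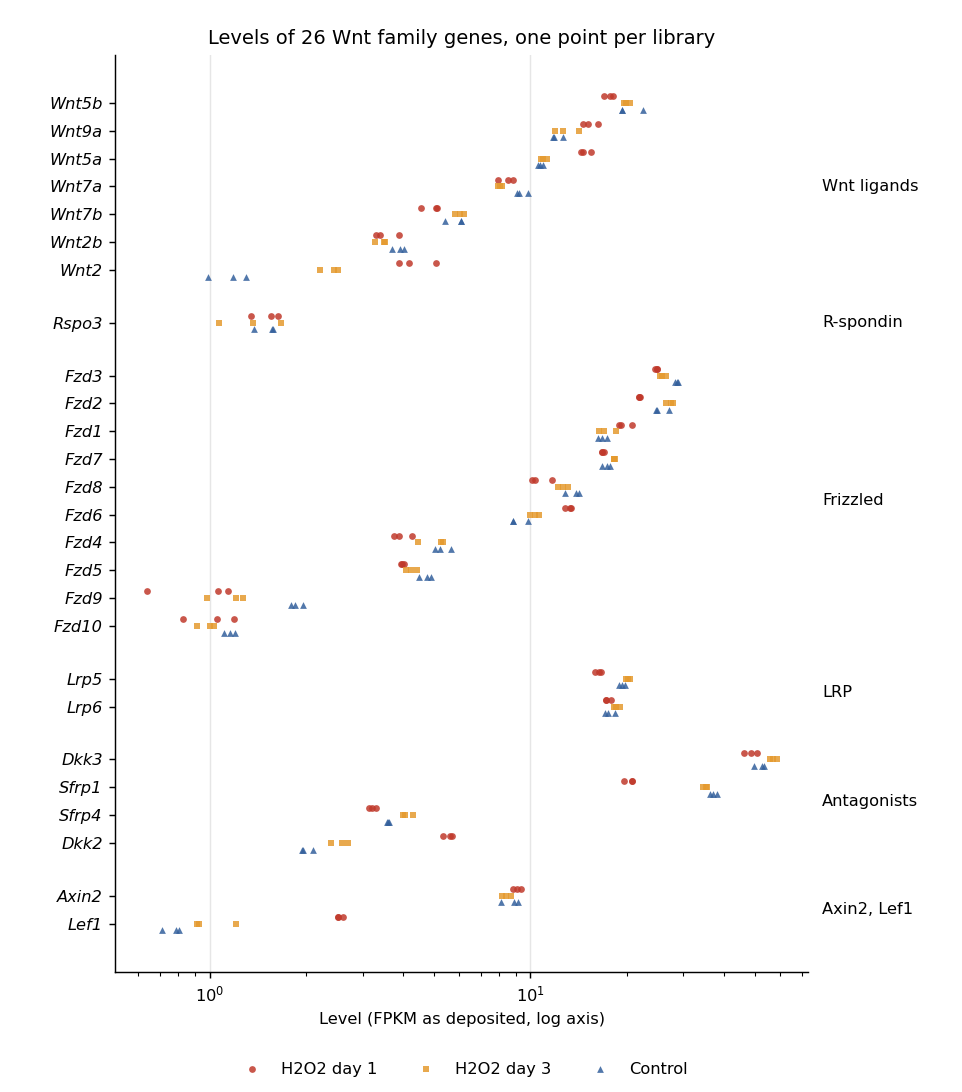
Level of each of the 26 Wnt family genes that reached a mean of 1 FPKM, in deposited FPKM on a log axis, one point per library: H2O2 day 1 circles, H2O2 day 3 squares, control triangles, grouped by role. Dkk3 and Sfrp1 lie far to the right of Lef1, Fzd9 and Fzd10, and the day 1 circles of Wnt2, Dkk2 and Lef1 stand clear to the right of the other groups.

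One day after peroxide, Wnt2, Lef1 and Dkk2 stood out with rises of 3.65-fold, 3.11-fold and 2.75-fold, and Sfrp1 with a 1.78-fold fall. Lef1 met the filter of 1 FPKM through its day 1 libraries, and its call was kept with no filter on low values. Among the receptors only Fzd9 moved by more than 1.5-fold. Of the 26 genes tested, 7 were higher, 11 were lower and 8 were not called (limma, Benjamini-Hochberg adjusted p under 0.05 over all 12611 genes tested). On that day 62.2% of all genes tested were called, 31.1% in each direction, so a call by itself was common, and the Wnt genes' count does not stand apart from that share. Their median log2 fold change was -0.11, against -0.0014 over all genes. Deposited values did not overlap between day 1 and control for 19 of the 26, against 66.1% of all genes.

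On day 3 fewer of them differed from control: 5 were higher, 3 were lower and 18 were not called. The share called among all genes was 13.8%, with 7.37% higher and 6.45% lower. Deposited values did not overlap for 15 of the 26, against 30.3% of all genes. Their median log2 fold change was 0.05, against 0.006 over all genes, and Wnt2 again had the largest rise. These day 3 counts rest in part on single libraries. The count of higher genes was 2 without control replicate 2, 3 without day 3 replicate 1, 2 without day 3 replicate 2 and 3 without day 3 replicate 3, and the count of lower genes was 1 without control replicate 1 and 1 without day 3 replicate 3. Over all genes, 1742 were called with every library, 1030 without day 3 replicate 1 and 1022 without day 3 replicate 3. Both days were set against the same 3 control libraries, so the comparisons with control are not independent.

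Between the days directly, 10 of the 26 were higher on day 3 than on day 1, 7 were lower and 9 were not called, against 56.2% of all genes called (27.9% higher, 28.4% lower). Values did not overlap between the days for 21 of the 26, against 61.8% of all genes. For Fzd2, Fzd7, Lrp5, Wnt7b, Dkk3 and Sfrp4 the day 3 mean lay above both other group means. For the other called genes it lay between the day 1 and control means.

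**Figure D2:**
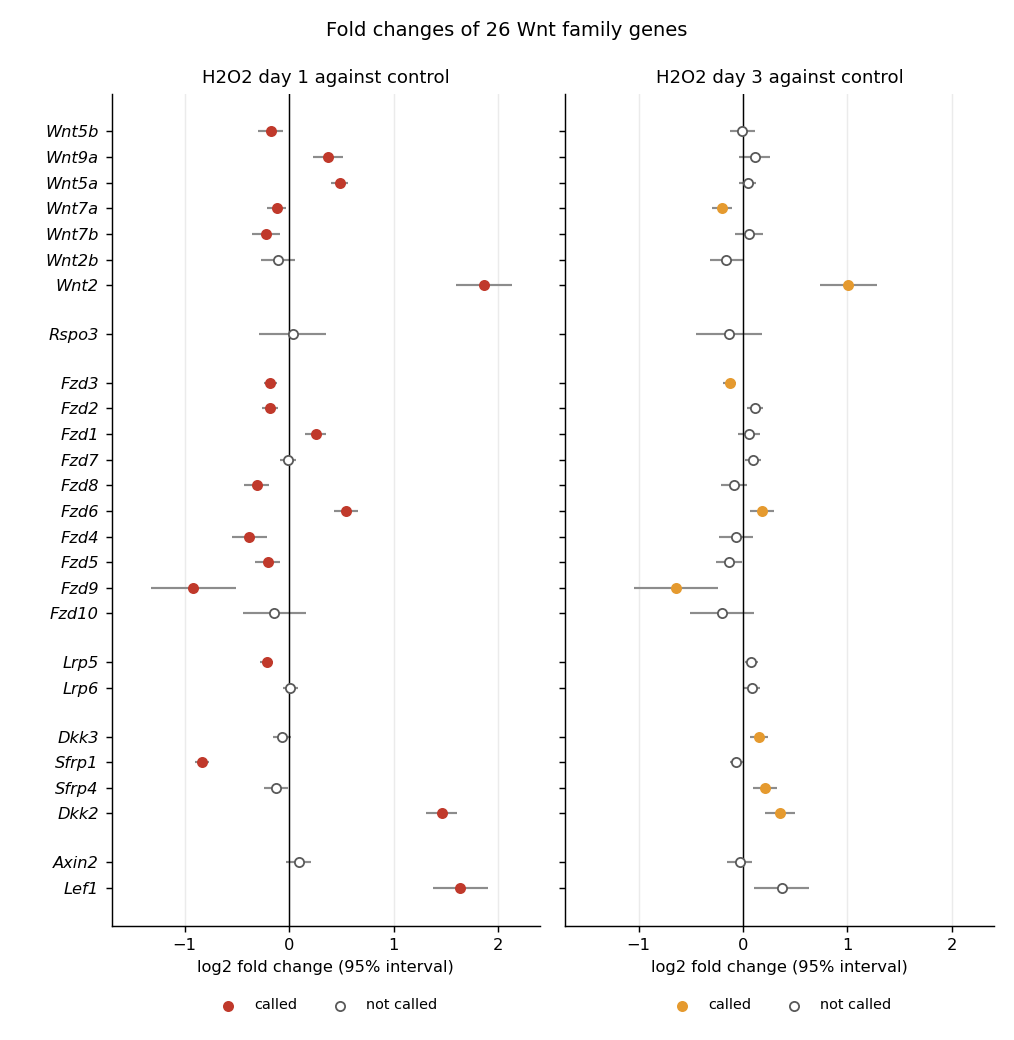
Log2 fold change against control of the 26 Wnt family genes on day 1 (left) and day 3 (right), with 95% intervals from limma. Coloured points were called and white points were not. On day 1 Wnt2, Lef1 and Dkk2 lie beyond 1 on the right and Fzd9 and Sfrp1 lie lowest, while on day 3 Wnt2 alone lies beyond 1.

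Markers of other cell types moved in the same libraries. The 8 astrocyte markers were all expressed, with Gfap at 1235 ± 76.8 FPKM on day 1, 1333 ± 8.47 FPKM on day 3 and 1493 ± 33.7 FPKM in control, and 2 of the 8 were higher and 5 lower on day 1. The 8 microglia markers summed to 65.8 to 70.3 FPKM in day 1 libraries, 132 to 166 FPKM in day 3 libraries and 160.3 to 176 FPKM in control libraries, with 6 of 7 tested lower on day 1 and 1 higher. Oligodendrocyte lineage markers summed to 34.6 to 37.0 FPKM on day 1, 40.0 to 41.8 FPKM on day 3 and 82.1 to 85.1 FPKM in control. Of the 7 tested, 6 were lower and 1 higher on day 1, and 6 were lower on day 3. Fibroblast and meningeal markers summed to 1314 to 1398 FPKM on day 1, 720.3 to 882 FPKM on day 3 and 620.0 to 664 FPKM in control, with 4 of 7 tested higher on day 1, such as Col1a1 at 2.67-fold, and 3 lower, such as Dcn at 4.90-fold; Pdgfra stands on this list and on the oligodendrocyte list. Mural cell markers summed to 2129 to 2201 FPKM on day 1, 1080.5 to 1171 FPKM on day 3 and 1157 to 1254 FPKM in control, with 4 of 6 tested higher on day 1 and 1 lower; Kcnj8 and Abcc9, which define pericytes, had group means under 0.1 FPKM. Ependymal markers summed to 67.4 to 75.7 FPKM on day 1, 105 to 120.1 FPKM on day 3 and 116 to 127 FPKM in control, with all 3 tested lower on day 1. Endothelial markers summed to 12.7 to 13.5 FPKM on day 1, 14.7 to 15.9 FPKM on day 3 and 12.8 to 13.6 FPKM in control, and Cldn5 was at 0 in all day 1 and day 3 libraries. Neuron markers summed to 108 to 111 FPKM on day 1, 108 to 109.5 FPKM on day 3 and 101 to 102 FPKM in control, with all 3 tested higher on day 1, while Rbfox3, which defines neurons, had group means under 0.1 FPKM. On day 3, 5 of 7 fibroblast and meningeal markers tested were higher and 1 lower, and 3 of 8 astrocyte markers were lower. For neuron markers 2 of 3 were higher, and for mural cell markers 1 of 6 was higher and 1 lower. The 1 endothelial marker tested was higher, and no microglia or ependymal marker was called on day 3. Over all genes tested, 31.1% were called in each direction on day 1, and 7.37% higher and 6.45% lower on day 3. The part of these shifts in the Wnt results was not tested, and in bulk RNA fewer cells of a type and less RNA per cell cannot be told apart.

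Among the 7 ligands with a mean of at least 1 FPKM, Wnt2 (chromosome 6, 17985474 to 18032772, GRCm38.p6, as for all coordinates here) moved furthest. Wnt2 acts through beta-catenin in the developing lung and heart. Its level was 4.20, 3.90 and 5.07 FPKM in the day 1 libraries, 2.45, 2.21 and 2.52 FPKM in the day 3 libraries and 1.30, 1.18 and 0.991 FPKM in the control libraries. The 3 groups did not overlap, with day 1 highest and day 3 between day 1 and control. Wnt2 was 3.65-fold higher (95% interval 3.03 to 4.40) on day 1 than in control (limma adjusted p = 4.10e-07) and 2.01-fold higher (95% interval 1.67 to 2.43) on day 3 than in control (limma adjusted p = 0.000583). Day 3 was in turn 1.81-fold lower (95% interval 1.5 to 2.19) than day 1 (limma adjusted p = 0.000157). Wnt2 made up 6.19% of the summed ligand FPKM on day 1, 3.67% on day 3 and 1.78% in control.

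Wnt5a (chromosome 14, 28504543 to 28527448), the best known ligand of the beta-catenin-independent branches, was called higher on day 1. Its values were 15.4, 14.4 and 14.6 FPKM in the day 1 libraries, 11.2, 10.8 and 10.9 FPKM in the day 3 libraries and 10.7, 10.9 and 10.6 FPKM in the control libraries. Day 1 stood clear of both other groups, which overlapped. The rise on day 1 was 1.40-fold (log2 0.49, limma adjusted p = 1.12e-06), and the day 3 difference from control had a log2 interval of -0.03 to 0.13. Between the days, day 3 was 1.36-fold lower (limma adjusted p = 3.66e-06). Its paralog Wnt5b (chromosome 6, 119432531 to 119544824) had 17.7, 16.9 and 18.1 FPKM in the day 1 libraries, 19.8, 19.6 and 20.4 FPKM in the day 3 libraries and 19.3, 19.2 and 22.4 FPKM in the control libraries. Wnt5b was 1.13-fold lower on day 1 (limma adjusted p = 0.0167), a call lost without day 1 replicate 2 (limma adjusted p = 0.0666), and its day 3 libraries overlapped control.

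Wnt9a (chromosome 11, 59306849 to 59333552), known from joint formation, had 16.2, 15.1 and 14.6 FPKM in the day 1 libraries, 12.6, 14.2 and 12 FPKM in the day 3 libraries and 11.8, 11.9 and 12.6 FPKM in the control libraries. It was 1.29-fold higher on day 1 (limma adjusted p = 0.000547), and the day 3 libraries overlapped control (limma adjusted p = 0.311). Wnt9a was 1.2-fold lower on day 3 than on day 1 (limma adjusted p = 0.00595).

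Wnt7a and Wnt7b, the ligands that signal to brain endothelium, were both a little lower on day 1. Wnt7a (chromosome 6, 91363981 to 91411353) had 8.54, 8.80 and 7.95 FPKM in the day 1 libraries, 8.01, 7.95 and 8.18 FPKM in the day 3 libraries and 9.23, 9.81 and 9.09 FPKM in the control libraries, so both peroxide groups lay below all controls. Wnt7a was 1.09-fold lower on day 1 (limma adjusted p = 0.0291), a call lost without control replicate 1 (limma adjusted p = 0.0652), control replicate 2 (limma adjusted p = 0.108) or day 1 replicate 3 (limma adjusted p = 0.107) and with only the 6 libraries compared (limma adjusted p = 0.0502). On day 3 it was 1.15-fold lower than in control (limma adjusted p = 0.0110), a call kept when any 1 library was left out. Wnt7b (chromosome 15, 85535437 to 85581821) had 5.06, 5.12 and 4.55 FPKM in the day 1 libraries, 6.21, 5.82 and 6.03 FPKM in the day 3 libraries and 6.07, 6.09 and 5.41 FPKM in the control libraries. It was 1.16-fold lower on day 1 (limma adjusted p = 0.00924), and on day 3 it was 1.21-fold higher than on day 1 (limma adjusted p = 0.00285) and overlapped control. Wnt2b (chromosome 3, 104944805 to 104961709), the close paralog of Wnt2, averaged 3.53 ± 0.325 FPKM on day 1, 3.43 ± 0.134 FPKM on day 3 and 3.89 ± 0.159 FPKM in control and was called in none of the 3 comparisons by limma (adjusted p 0.229 on day 1, 0.184 on day 3 and 0.553 between the days).

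Summed over all 19 ligands, the level was 70.9 ± 1.70 FPKM on day 1, 65.2 ± 0.354 FPKM on day 3 and 65.0 ± 1.37 FPKM in control. The day 1 libraries (69.6 to 72.8 FPKM) lay above the day 3 (64.9 to 65.5 FPKM) and control libraries (64.1 to 66.6 FPKM), which overlapped. Wnt5b remained the most abundant ligand in each group, at 17.6 ± 0.603 FPKM on day 1, 19.9 ± 0.398 FPKM on day 3 and 20.3 ± 1.81 FPKM in control. On day 1 Wnt9a and Wnt5a followed at 15.3 ± 0.848 and 14.8 ± 0.552 FPKM, levels whose libraries overlapped.

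Rspo3 (chromosome 10, 29453106 to 29535867) was the R-spondin above 1 FPKM. R-spondins bind LGR receptors and take the ubiquitin ligases ZNRF3 and RNF43 off the membrane, which leaves more Frizzled at the surface. Rspo3 averaged 1.51 ± 0.146 FPKM on day 1, 1.37 ± 0.298 FPKM on day 3 and 1.51 ± 0.11 FPKM in control, the groups overlapped, and no comparison called it (limma adjusted p 0.853 on day 1, 0.607 on day 3). Its day 1 log2 interval, -0.29 to 0.35, is wide, and 13.1% of its exon bases in GENCODE vM21 overlap a gene on the opposite strand. Such overlaps cover 6.62% of the exon bases of Wnt7b, 4.58% of Wnt5a, 3.80% of Axin2 and 3.15% of Fzd6. The sources used here do not give the strand setting of the counting, so reads of the overlapping genes cannot be told apart.

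The Frizzled receptors, which bind Wnts with a cysteine-rich outer domain, moved both ways on day 1: 2 were higher, 6 were lower and 2 were not called. The share of all genes called on that day was 62.2%, with 31.1% in each direction. Fzd6 (chromosome 15, 39006149 to 39038192), a receptor known for planar cell polarity, had the larger rise. Fzd6 levels were 12.9, 13.3 and 13.3 FPKM in the day 1 libraries, 10.6, 9.98 and 10.4 FPKM in the day 3 libraries and 9.87, 8.83 and 8.83 FPKM in the control libraries. The 3 groups did not overlap, and day 1 was highest. On day 1 it was 1.46-fold higher (95% interval 1.35 to 1.58) than in control (limma adjusted p = 5.89e-06). On day 3 it was 1.14-fold higher than in control (limma adjusted p = 0.0383), a call lost without any 1 of control replicates 2 and 3, day 1 replicate 2 and day 3 replicates 1, 2 and 3 (limma adjusted p 0.0553 to 0.125), with no filter on low values (limma adjusted p = 0.0673) and with only the 6 libraries compared (limma adjusted p = 0.0697). Fzd1 (chromosome 5, 4753839 to 4758216), a receptor of the beta-catenin branch, averaged 19.6 ± 0.955 FPKM on day 1, 17.3 ± 1.05 FPKM on day 3 and 16.8 ± 0.527 FPKM in control and was 1.19-fold higher on day 1 (limma adjusted p = 0.000704).

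Fzd9 (chromosome 5, 135248938 to 135251047), a receptor studied in the hippocampus, had the lowest fold change of the 26. It had 1.06, 1.14 and 0.638 FPKM in the day 1 libraries, 1.21, 1.27 and 0.98 FPKM in the day 3 libraries and 1.85, 1.96 and 1.79 FPKM in the control libraries. All controls lay above all peroxide libraries, and day 1 replicate 3 was the lowest. Fzd9 was 1.89-fold lower (95% interval 1.43 to 2.49) on day 1 (limma adjusted p = 0.00124) and 1.56-fold lower on day 3 (limma adjusted p = 0.0408). The day 3 call was lost without any 1 of the 3 controls, day 3 replicate 1 or day 3 replicate 3 (limma adjusted p 0.0856 to 0.139) and with no filter on low values (limma adjusted p = 0.0795).

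The other 5 receptors lower on day 1 fell by less than 1.5-fold. Fzd4 (chromosome 7, 89404366 to 89410110), the receptor for norrin as well as Wnts, averaged 3.97 ± 0.274 FPKM on day 1, 5.02 ± 0.478 FPKM on day 3 and 5.31 ± 0.325 FPKM in control and was 1.30-fold lower on day 1 (limma adjusted p = 0.00123). Fzd8, of the same subfamily as Fzd5, averaged 10.7 ± 0.844 FPKM on day 1, 12.7 ± 0.432 FPKM on day 3 and 13.6 ± 0.721 FPKM in control and was 1.24-fold lower (limma adjusted p = 0.000540). Fzd5 (chromosome 1, 64730558 to 64737750) averaged 3.99 ± 0.0567 FPKM on day 1, 4.26 ± 0.163 FPKM on day 3 and 4.73 ± 0.202 FPKM in control and was 1.15-fold lower (limma adjusted p = 0.00805); 17.8% of its exon bases overlap an opposite-strand gene. Fzd2 (chromosome 11, 102604431 to 102608058) averaged 21.9 ± 0.104 FPKM on day 1, 27.2 ± 0.604 FPKM on day 3 and 25.5 ± 1.33 FPKM in control. It was 1.14-fold lower on day 1 than in control (limma adjusted p = 0.000918) and 1.23-fold higher on day 3 than on day 1 (limma adjusted p = 4.42e-05). Against control its day 3 level was not called (limma adjusted p = 0.0626), but was higher in limma-voom (adjusted p = 0.0209) and without control replicate 3 (limma adjusted p = 0.0191). Fzd3 (chromosome 14, 65192441 to 65262463), which with Fzd6 serves planar cell polarity and axon guidance, had 24.5, 24.8 and 24.7 FPKM in the day 1 libraries, 26.5, 25.7 and 25.3 FPKM in the day 3 libraries and 28.9, 28.6 and 28.2 FPKM in the control libraries. Fzd3 was 1.13-fold lower on day 1 (limma adjusted p = 0.000387) and 1.09-fold lower on day 3 (limma adjusted p = 0.0171), and the day 3 call was lost without control replicate 1 (limma adjusted p = 0.0647) or day 3 replicate 3 (limma adjusted p = 0.0724). So Fzd3 and Fzd6, the planar polarity pair, moved in opposite directions on day 1.

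Fzd7 and Fzd10 were not called against control on either day by limma. Fzd7 (chromosome 1, 59482147 to 59486955), a receptor of many stem and progenitor cells, averaged 16.8 ± 0.134 FPKM on day 1, 18.2 ± 0.0907 FPKM on day 3 and 17.3 ± 0.477 FPKM in control, and was 1.08-fold higher on day 3 than on day 1 (limma adjusted p = 0.0183); that call was lost without day 1 replicate 1 (limma adjusted p = 0.0545) or day 3 replicate 2 (limma adjusted p = 0.0520). Against control its day 3 level was called higher in limma-voom (adjusted p = 0.0383) and without control replicate 1 (limma adjusted p = 0.0452). Fzd10 (chromosome 5, 128601106 to 128604093) was the least abundant receptor in control, at 1.02 ± 0.182 FPKM on day 1, 0.982 ± 0.0629 FPKM on day 3 and 1.16 ± 0.0472 FPKM in control. Summed over the 10 receptors, Frizzled FPKM was 117 ± 1.78 on day 1, 123 ± 1.57 on day 3 and 124 ± 0.809 in control, and the day 1 libraries (115 to 119 FPKM) lay below all others.

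The co-receptors Lrp5 and Lrp6, which are needed for the beta-catenin branch, had similar levels; on day 1 Lrp5 was called lower and Lrp6 was not called. Lrp5 (chromosome 19, 3584825 to 3686585) had 16.3, 16.6 and 15.9 FPKM in the day 1 libraries, 20.5, 19.9 and 20.2 FPKM in the day 3 libraries and 19.2, 19.8 and 18.9 FPKM in the control libraries. Its day 1 libraries lay below all others. Lrp5 was 1.16-fold lower (95% interval 1.11 to 1.21) on day 1 than in control (limma adjusted p = 7.61e-05) and 1.22-fold higher on day 3 than on day 1 (limma adjusted p = 1.03e-05). Lrp6 (chromosome 6, 134446476 to 134566913) averaged 17.4 ± 0.334 FPKM on day 1, 18.6 ± 0.406 FPKM on day 3 and 17.7 ± 0.648 FPKM in control, with a day 1 log2 interval of -0.06 to 0.09 (limma adjusted p = 0.764). On day 3 limma-voom called Lrp6 higher than in control (adjusted p = 0.0453), where limma did not (adjusted p = 0.119), and it was called higher than on day 1 by limma-voom (adjusted p = 0.0402) and by limma without day 1 replicate 3 (adjusted p = 0.0347). Whether the 2 genes' changes differ from each other was not tested.

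Of the 4 antagonists tested, 1 was higher, 1 lower and 2 not called on day 1, and 3 were higher on day 3. Among all genes 62.2% were called on day 1 and 13.8% on day 3, with 7.37% higher on day 3. Sfrp1 (chromosome 8, 23411383 to 23449632), which binds Wnts outside the cell, had 20.8, 20.7 and 19.5 FPKM in the day 1 libraries, 34.5, 35.2 and 35.6 FPKM in the day 3 libraries and 36.2, 38.1 and 37.1 FPKM in the control libraries. Every day 1 library lay below every other library, and day 3 lay just under control. Sfrp1 was 1.78-fold lower (95% interval 1.70 to 1.86) on day 1 than in control (limma adjusted p = 7.36e-09), and on day 3 it was 1.71-fold higher (95% interval 1.63 to 1.78) than on day 1 (limma adjusted p = 2.28e-08). The day 3 difference from control was not called, with a log2 interval of -0.13 to 0.00 (limma adjusted p = 0.183).

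Dkk2 (chromosome 3, 132085266 to 132180304), which binds LRP5 and LRP6 and can block them, went the other way. Its libraries had 5.34, 5.71 and 5.62 FPKM in the day 1 libraries, 2.7, 2.39 and 2.59 FPKM in the day 3 libraries and 2.10, 1.95 and 1.95 FPKM in the control libraries. The 3 groups did not overlap, with day 1 highest and control lowest. Dkk2 was 2.75-fold higher (95% interval 2.49 to 3.05) on day 1 (limma adjusted p = 3.93e-08) and 1.28-fold higher on day 3 (limma adjusted p = 0.00614) than in control. Between the days it was 2.16-fold lower (95% interval 1.95 to 2.39) on day 3 (limma adjusted p = 4.06e-07).

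Dkk3 (chromosome 7, 112116019 to 112159482), whose role in Wnt signalling is not settled, had 50.7, 48.8 and 46.3 FPKM in the day 1 libraries, 58.5, 57.0 and 55.9 FPKM in the day 3 libraries and 52.8, 49.9 and 53.6 FPKM in the control libraries. Day 1 overlapped control, and day 3 lay above both. It was not called on day 1 (limma adjusted p = 0.145). Without rescaling, with quantile normalization and without control replicate 2 it was called lower, at log2 fold changes of -0.10, -0.11 and -0.10 (limma adjusted p 0.0470, 0.0302 and 0.0349). On day 3 Dkk3 was 1.11-fold higher than in control (limma adjusted p = 0.0259), a call lost without control replicate 2 (limma adjusted p = 0.0858), day 3 replicate 1 (limma adjusted p = 0.0931) or day 3 replicate 2 (limma adjusted p = 0.0621) and without rescaling (limma adjusted p = 0.0503). Day 3 was 1.16-fold above day 1 (limma adjusted p = 0.000668).

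Sfrp4 (chromosome 13, 19623175 to 19632825), another Wnt-binding member, had 3.29, 3.21 and 3.14 FPKM in the day 1 libraries, 4.0, 4.05 and 4.32 FPKM in the day 3 libraries and 3.63, 3.57 and 3.59 FPKM in the control libraries. Day 1 lay lowest, day 3 highest, and no 2 groups overlapped. On day 1 it was not called (limma adjusted p = 0.0549), but was without rescaling (limma adjusted p = 0.0268). On day 3 it was 1.16-fold higher than in control (limma adjusted p = 0.0249). That call was lost without control replicate 2, control replicate 3, day 3 replicate 2 or day 3 replicate 3 (limma adjusted p 0.0522 to 0.104) and in limma-voom (adjusted p = 0.0781). Day 3 was 1.26-fold above day 1 (limma adjusted p = 0.000305). Summed over the 10 antagonists, the level was 80.2 ± 3.27 FPKM on day 1, 102 ± 0.664 FPKM on day 3 and 98.0 ± 1.49 FPKM in control; without Dkk3 it was 31.6 ± 1.18, 44.9 ± 0.647 and 45.9 ± 1.06 FPKM in the same groups. The day 1 libraries lay below both other groups in each sum.

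**Figure D3:**
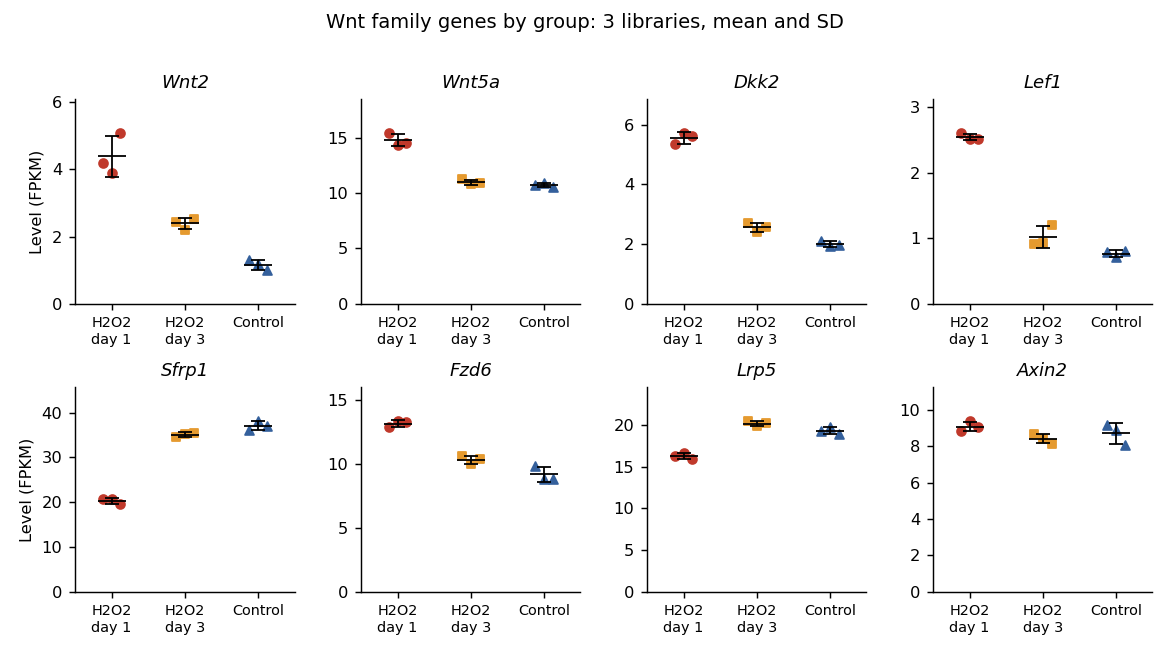
Deposited FPKM of 8 Wnt family genes, with the 3 libraries of H2O2 day 1, H2O2 day 3 and control as points, the group mean as a bar and the SD as whiskers, on axes from 0. Wnt2 and Dkk2 step down from day 1 through day 3 to control, Sfrp1 is low on day 1 alone, and for Axin2 both peroxide groups overlap control.

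Inside the cell, the 2 genes with a known tie to beta-catenin output gave different calls. Axin2 (chromosome 11, 108917828 to 108950783) encodes a scaffold of the destruction complex and is a widely used readout of beta-catenin signalling, since it is itself a target and feeds back on the pathway. Axin2 had 8.83, 9.38 and 9.05 FPKM in the day 1 libraries, 8.69, 8.42 and 8.15 FPKM in the day 3 libraries and 9.16, 8.91 and 8.08 FPKM in the control libraries. Both peroxide groups overlapped control. Its log2 fold change was 0.09 on day 1 (95% interval -0.03 to 0.21, limma adjusted p = 0.157) and -0.03 on day 3 (95% interval -0.15 to 0.09, limma adjusted p = 0.760). Without control replicate 1 the day 1 difference was called, at a log2 fold change of 0.14 (limma adjusted p = 0.0461). Day 3 lay below day 1 without overlap, at a log2 difference of -0.12 (limma adjusted p = 0.0718), a fall that was called without control replicate 1 (limma adjusted p = 0.0495), without control replicate 3 (limma adjusted p = 0.0291), with only the 6 libraries compared (limma adjusted p = 0.0336) and in limma-voom (adjusted p = 0.0383).

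Lef1 (chromosome 3, 131110297 to 131224357), an HMG-box factor that carries beta-catenin to its target genes, had 2.6, 2.52 and 2.51 FPKM in the day 1 libraries, 0.915, 0.925 and 1.21 FPKM in the day 3 libraries and 0.788, 0.713 and 0.801 FPKM in the control libraries. Each day 1 library was over 2 times as high as any other library. Lef1 was 3.11-fold higher (95% interval 2.59 to 3.75) on day 1 than in control (limma adjusted p = 9.43e-07) and 2.41-fold lower (95% interval 2.00 to 2.90) on day 3 than on day 1 (limma adjusted p = 8.88e-06). Group means were 2.54 FPKM on day 1, 1.02 FPKM on day 3 and 0.767 FPKM in control. Lef1 thus met the filter of 1 FPKM over the 9 libraries through its day 1 libraries, and both calls were kept with no filter on low values. On day 3 all 3 libraries lay above control, and the difference was not called (log2 0.37, limma adjusted p = 0.0680), though limma-voom on recovered reads called it (adjusted p = 0.0279). An opposite-strand gene overlaps 13.7% of the exon bases of Lef1.

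The members under 1 FPKM were 22: 12 ligands, 6 antagonists, 3 R-spondins and Fzd10os. Of these, 5 had means of 0.5 to 1 FPKM and 9 had means under 0.1 FPKM. Frzb, a Wnt-binding protein known from cartilage, averaged 0.866 ± 0.181 FPKM on day 1, 0.913 ± 0.180 FPKM on day 3 and 0.940 ± 0.108 FPKM in control. Its relative Sfrp5 averaged 0.857 ± 0.395 FPKM on day 1, 0.939 ± 0.174 FPKM on day 3 and 1.09 ± 0.0435 FPKM in control. Wnt4, a ligand of kidney and reproductive tract development, averaged 0.818 ± 0.0108 FPKM on day 1, 0.619 ± 0.0191 FPKM on day 3 and 0.683 ± 0.0502 FPKM in control. Fzd10os, transcribed next to Fzd10, averaged 0.490 ± 0.0167 FPKM on day 1, 0.716 ± 0.152 FPKM on day 3 and 0.665 ± 0.0734 FPKM in control. Wif1 averaged 0.442 ± 0.0142 FPKM on day 1, 0.979 ± 0.0806 FPKM on day 3 and 0.674 ± 0.0917 FPKM in control. Wnt1 was listed at 0 in all 9 libraries. The remaining ones, Dkk1, Dkk4, Rspo4, Wnt3, Wnt3a, Wnt8a, Wnt9b, Wnt10a, Wnt16, Sfrp2, Rspo1, Rspo2, Wnt6, Wnt8b, Wnt10b and Wnt11, stayed under 0.5 FPKM in every group mean.

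The FPKM filter kept these genes out of the main test, so they were tested on the reads recovered from the FPKM, a fit added after their values were seen. Of the 22, 12 had at least 10 reads in at least 3 libraries. On day 1, 2 of the 12 were higher and 4 were lower (limma-voom, adjusted over 15330 genes, of which 58.0% were called). The read filter favours genes that are high in 1 group, so these counts are a description. On day 3 against control 1 was higher, Wif1, and no other was called, against 17.7% of all genes. Between the days 5 were higher on day 3 (Rspo1, Rspo2, Wif1, Wnt6 and Wnt8b) and 3 lower (Wnt4, Wnt10b and Wnt11), against 51.8% called. Sfrp2 and Sfrp5 were not called on day 1 by limma-voom with all libraries. They were called lower without control replicate 1 and day 1 replicate 1 in that order (limma-voom adjusted p 0.0203 and 0.0314). Sfrp2 was likewise called lower on day 3 without control replicate 1 (limma-voom adjusted p = 0.0470). Rspo1 had 6, 5 and 4 reads in the day 1 libraries and 10 or more in every other library. It thus passed the read filter through the groups where it is high. Its day 1 difference is given as a description, a log2 fold change of -0.84 in limma-voom, not called with all libraries but called without control replicate 3. By limma on log2 FPKM with no filter on low values Rspo1 was called lower on day 1 (log2 -0.54, adjusted p = 0.0195). Of the genes described next all but Wif1 have means under 0.5 FPKM, and those were picked after their values were seen.

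Wnt11 (chromosome 7, 98835084 to 98854747), a ligand of cell movement, had 0.319, 0.462 and 0.654 FPKM in the day 1 libraries, 0.154, 0.0686 and 0.205 FPKM in the day 3 libraries and 0.104, 0.0817 and 0.11 FPKM in the control libraries, which stood for 113, 47 and 31 reads over the 3 libraries of each group. It was 4.67-fold higher on day 1 than in control (log2 interval 1.47 to 2.98, limma-voom adjusted p = 1.08e-05); 8.80% of its exon bases overlap an opposite-strand gene. Wnt10b (chromosome 15, 98770712 to 98778206), a ligand known from bone and fat, had 0.285, 0.306 and 0.448 FPKM in the day 1 libraries, 0.0588, 0.11 and 0.134 FPKM in the day 3 libraries and 0.0742, 0.0351 and 0.128 FPKM in the control libraries, from 57, 24 and 17 reads in the same groups. Wnt10b passed the read filter through the day 1 group: it had 15, 19 and 23 reads in the day 1 libraries, 4, 9 and 11 reads in the day 3 libraries and 5, 3 and 9 reads in the control libraries. Its difference is therefore given as a description, 4.74-fold higher on day 1 than in control (log2 interval 1.38 to 3.12). Every day 1 library of both genes lay above every other library, and day 3 overlapped control.

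Rspo2 (chromosome 15, 43020788 to 43171594), the R-spondin of limb and lung development, had 0.0503, 0.0961 and 0.0646 FPKM in the day 1 libraries, 0.438, 0.349 and 0.421 FPKM in the day 3 libraries and 0.442, 0.457 and 0.293 FPKM in the control libraries, from 18, 140 and 135 reads in the same groups. It was 5.17-fold lower on day 1 than in control (log2 interval -3.11 to -1.64) and 5.32-fold higher on day 3 than on day 1. Day 1 lay below every other library, and day 3 overlapped control. Rspo2, like Rspo1, Wnt6 and Wnt8b, reached 10 reads in the day 3 and control libraries but in no day 1 library. These genes thus passed the read filter through the groups where they are high, and their differences are given as a description. Wnt6 (chromosome 1, 74754342 to 74785322), a ligand of epithelia, averaged 0.0578 ± 0.0150 FPKM on day 1, 0.25 ± 0.0463 FPKM on day 3 and 0.225 ± 0.0305 FPKM in control and was 3.40-fold lower on day 1 than in control. Wnt8b (chromosome 19, 44493472 to 44514273), a ligand of the embryonic forebrain, averaged 0.0698 ± 0.0289 FPKM on day 1, 0.24 ± 0.0651 FPKM on day 3 and 0.232 ± 0.0277 FPKM in control and was 3.13-fold lower on day 1 than in control. Wif1 (chromosome 10, 121034004 to 121100642), the Wnt inhibitory factor, had 0.452, 0.448 and 0.426 FPKM in the day 1 libraries, 0.978, 1.06 and 0.898 FPKM in the day 3 libraries and 0.575, 0.755 and 0.694 FPKM in the control libraries, and its groups did not overlap. Wif1 was 1.48-fold lower on day 1 (limma-voom adjusted p = 0.0329) and 1.45-fold higher on day 3 (limma-voom adjusted p = 0.0296) than in control. Both Wif1 calls depended on single libraries: the first was lost without control replicate 2 or 3 or any 1 day 1 library (adjusted p 0.0572 to 0.108), the second without control replicate 1, control replicate 3, day 3 replicate 1 or day 3 replicate 2 (adjusted p 0.0629 to 0.112).

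**Figure D4:**
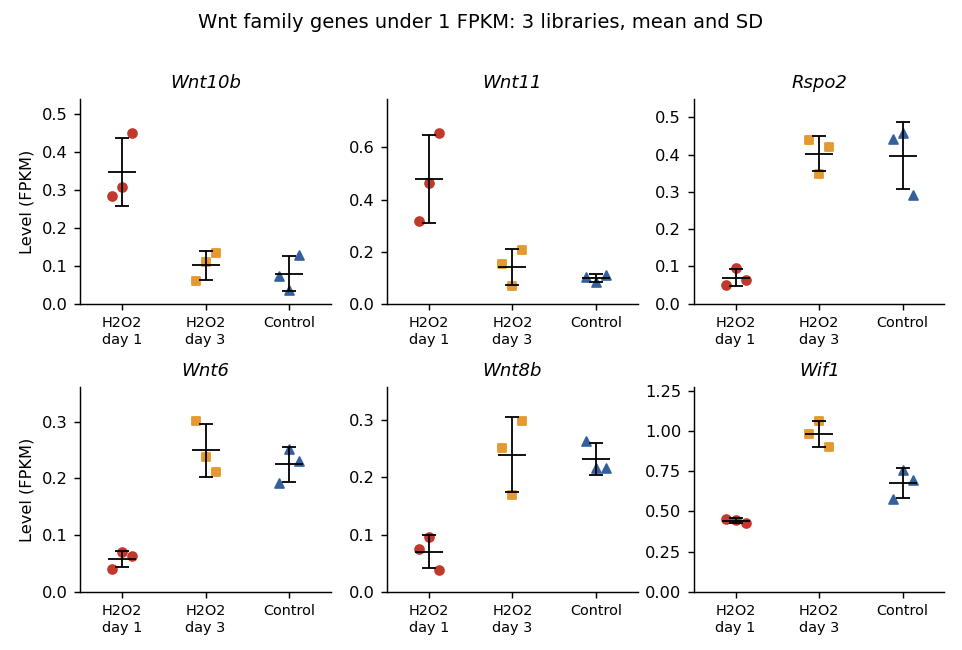
Deposited FPKM of 6 Wnt family genes under 1 FPKM, with the 3 libraries of H2O2 day 1, H2O2 day 3 and control as points, the mean as a bar and the SD as whiskers, on axes from 0. The day 1 libraries of Wnt10b and Wnt11 lie above, and those of Rspo2, Wnt6, Wnt8b and Wif1 below, all others.

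Promoter sequence was in the RefSeq table (GRCm38.p6) for 31 of the 48 genes, 37 promoters in all, and the 250 bases before each transcript start were searched on both strands. The TCF/LEF core ATCAAAG, which beta-catenin partners bind, was in 2 of the 37, for Wnt11 at 51 bases before the start and for Wnt5b at 71 bases, or 5.41%, against 3.21% of 32851 promoters of all genes. The AP-1 core TGANTCA, bound by stress-responsive factors, was in 1 of the 37, for Wnt5b at 191 bases, or 2.7%, against 6.75% of all. The Wnt5b motifs lie in different promoters of the gene, TCF/LEF in chr6:119449387-119449636 and AP-1 in chr6:119544348-119544597. Both of these windows lie wholly within the annotated span of Wnt5b. The stretches of Wnt11 (chr7:98834862-98835083, plus strand), Lef1 (chr3:131110047-131110296, plus strand) and Dkk2 (chr3:132085042-132085265, plus strand) are shown: Wnt11 for its TCF/LEF core, and Lef1 and Dkk2 as genes with large day 1 rises. The window of Wnt2 (chr6:18030446-18030695) lies wholly within the annotated span of the gene and is not shown. Each stretch ends before the first annotated base of the gene, and capitals mark the TCF/LEF core. The searched windows of Wnt11 and Dkk2 ended at 98835111 and 132085291, past that base, and only the part before it is shown. The 51 bases given for Wnt11 count to the end of its window, so fewer bases follow the core in the stretch shown.
Wnt11: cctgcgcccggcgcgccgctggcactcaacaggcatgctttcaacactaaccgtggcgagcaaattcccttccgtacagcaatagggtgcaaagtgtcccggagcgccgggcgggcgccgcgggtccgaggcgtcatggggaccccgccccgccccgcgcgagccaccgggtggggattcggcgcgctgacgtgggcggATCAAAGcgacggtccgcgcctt
Lef1: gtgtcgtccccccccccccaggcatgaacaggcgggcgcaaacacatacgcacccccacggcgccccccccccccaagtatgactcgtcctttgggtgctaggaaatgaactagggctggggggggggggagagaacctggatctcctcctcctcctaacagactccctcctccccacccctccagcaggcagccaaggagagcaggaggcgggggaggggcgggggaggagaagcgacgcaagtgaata
Dkk2: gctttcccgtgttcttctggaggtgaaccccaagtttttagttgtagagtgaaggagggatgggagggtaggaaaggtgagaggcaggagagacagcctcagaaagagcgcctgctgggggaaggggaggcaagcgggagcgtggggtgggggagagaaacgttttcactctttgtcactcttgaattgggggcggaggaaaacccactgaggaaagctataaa
Neither core was in the windows of Lef1 and Dkk2, nor in those of the other genes higher on day 1 with a promoter in the table, Wnt2, Wnt9a, Wnt10b and Fzd1, which says only that these letters are not there.

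The rest of the pathway was taken from 5 lists of 73 genes, of which 66 reached 1 FPKM. On day 1, 22 were higher and 25 lower. On day 3, 9 were higher and 7 lower than in control, and between the days 19 were higher and 23 lower on day 3. Over all genes tested, 31.1% were called in each direction on day 1. On day 3, 7.37% were higher and 6.45% lower than in control, and between the days 27.9% were higher and 28.4% lower. The counts of each list below stand beside the same shares. The list of secretion genes, alternative receptors and extracellular modifiers moved both ways on day 1: of 18 tested, 8 were higher and 4 lower. Ror2, Ryk, Ptk7 and Adgra2, receptors or co-receptors, were among the 8. Cthrc1, a secreted protein that joins Wnts to Frizzled and ROR2, was 3.09-fold higher at 106 ± 9.97 FPKM on day 1 and 34.9 ± 2.18 FPKM in control (limma adjusted p = 1.85e-07). Notum, an enzyme that strips the lipid from Wnts, was 2.7-fold higher at 3.49 ± 0.382 FPKM on day 1 and 1.26 ± 0.154 FPKM in control (limma adjusted p = 8.58e-06). Wls, the carrier that takes Wnts to the cell surface, was 1.68-fold higher at 51.8 ± 0.410 FPKM on day 1 and 31.6 ± 0.860 FPKM in control (limma adjusted p = 1.70e-08), and 1.18-fold higher on day 3 (limma adjusted p = 0.000588).

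In the same list Porcn, which attaches the lipid, was 1.28-fold lower on day 1 at 7.31 ± 0.300 FPKM on day 1 and 9.56 ± 0.257 FPKM in control (limma adjusted p = 0.000251), and Sostdc1, an LRP and BMP antagonist, was 1.51-fold lower at 2.24 ± 0.212 FPKM on day 1 and 3.51 ± 0.0785 FPKM in control (limma adjusted p = 6.38e-05). On day 3 the list had 5 higher and 2 lower of 18. Ror2, a receptor for Wnt5a, averaged 7.21 ± 0.254 FPKM on day 1, 5.48 ± 0.415 FPKM on day 3 and 4.53 ± 0.441 FPKM in control and was 1.22-fold higher on day 3 (limma adjusted p = 0.0296), though not without control replicate 2, control replicate 3, day 3 replicate 1 or day 3 replicate 3 (limma adjusted p 0.0939 to 0.108), with no filter on low values (limma adjusted p = 0.0608) or with only the 6 libraries compared (limma adjusted p = 0.0606). Cthrc1 was 1.41-fold higher on day 3 (limma adjusted p = 0.00657), while Apcdd1, a membrane-bound Wnt inhibitor, was 1.58-fold lower at 6.20 ± 0.444 FPKM on day 3 and 9.98 ± 0.592 FPKM in control (limma adjusted p = 0.000125) and Sostdc1 1.32-fold lower (limma adjusted p = 0.00682). Between the days, 2 were higher and 10 lower on day 3, among them Notum at 2.23-fold lower, while Porcn and Znrf3, the ligase that removes Frizzled, were 1.23-fold and 1.12-fold higher. The Znrf3 call was lost with quantile normalization, with only the 6 libraries compared and without day 1 replicate 2, day 3 replicate 1 or day 3 replicate 2 (limma adjusted p 0.0520 to 0.134).

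Of 17 genes of the Dishevelled proteins, the destruction complex and beta-catenin, 6 were higher and 7 lower on day 1. Among all genes 31.1% were called in each direction. Ctnnb1, which encodes beta-catenin, averaged 295 ± 5.99 FPKM on day 1, 281 ± 5.34 FPKM on day 3 and 287 ± 4.08 FPKM in control. It was called 1.05-fold higher on day 1 (limma adjusted p = 0.0180), but not without rescaling (log2 0.04), and with quantile normalization the sign turned to a log2 fold change of -0.06 (limma adjusted p = 0.0707), so its direction rests on the scaling. It was also not called without control replicate 3 (limma adjusted p = 0.0551) or day 1 replicate 1 (limma adjusted p = 0.0746). Csnk1g1, a kinase that acts on LRP6, was 1.49-fold higher at 7.82 ± 0.132 FPKM on day 1 and 5.35 ± 0.256 FPKM in control and Csnk1a1, which primes beta-catenin for destruction, 1.17-fold higher at 125 ± 2.6 FPKM on day 1 and 109 ± 0.651 FPKM in control. Apc2 and Dvl2 were 1.27-fold and 1.14-fold lower. On day 3, 1 was higher, Csnk1g1 at 1.19-fold (limma adjusted p = 0.00457), and 2 were lower, Apc2 (limma adjusted p = 0.000498) and Dvl2 (limma adjusted p = 0.0429). The Dvl2 call was lost without control replicate 1 or 3, day 1 replicate 1 or 2, or day 3 replicate 1 or 3 (limma adjusted p 0.0532 to 0.151), with no filter on low values (limma adjusted p = 0.0763), with only the 6 libraries compared (limma adjusted p = 0.0584) and with a replicate block (limma adjusted p = 0.0618). Between the days 3 were higher and 5 lower on day 3, led by Dvl1 at 1.11-fold and Axin1 at 1.07-fold higher, and Csnk1g1 at 1.25-fold and Gsk3b, the kinase that marks beta-catenin, at 1.17-fold lower. The Axin1 call was lost without day 1 replicate 1, day 3 replicate 1 or day 3 replicate 2 (limma adjusted p 0.0704 to 0.122) and with only the 6 libraries compared (limma adjusted p = 0.0501).

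Of 12 TCF factors and nuclear partners, 1 was higher and 7 were lower on day 1. Among all genes 31.1% were called in each direction on day 1, and 27.9% higher and 28.4% lower between the days. The member that rose was Tcf7, a TCF factor, 1.28-fold higher at 8.94 ± 0.533 FPKM on day 1 and 7.14 ± 0.455 FPKM in control (limma adjusted p = 0.000513). Tcf7l1, mostly a repressor, was 1.16-fold lower (limma adjusted p = 0.000586), Tcf7l2 1.14-fold lower at 6.31 ± 0.346 FPKM on day 1 and 7.35 ± 0.186 FPKM in control (limma adjusted p = 0.00300), and the corepressor Tle2 1.16-fold lower (limma adjusted p = 0.0265). The Tle2 call was lost with quantile normalization and without control replicate 2, control replicate 3, day 1 replicate 1 or day 1 replicate 3 (limma adjusted p 0.0621 to 0.102). On day 3 a single gene was called, Ctnnbip1, an inhibitor of beta-catenin, 1.11-fold lower (limma adjusted p = 0.0151; not called without control replicate 2, control replicate 3 or day 3 replicate 1, adjusted p 0.0503 to 0.0599). Between the days 8 were higher and 3 lower, with Tle2 1.30-fold and Tle1 1.14-fold higher and Tcf7 1.24-fold and Pygo1 1.12-fold lower on day 3, the last not without day 1 replicate 2 (limma adjusted p = 0.0556) or day 3 replicate 2 (limma adjusted p = 0.0605).

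In the planar cell polarity branch 2 of 10 were higher and 4 lower on day 1, against 31.1% of all genes in each direction. Vangl2, a core polarity protein, was 1.44-fold lower at 11 ± 0.493 FPKM on day 1 and 16.1 ± 0.594 FPKM in control (limma adjusted p = 3.02e-06), and Daam2, a formin, 1.41-fold lower at 44.3 ± 1.27 FPKM on day 1 and 64.1 ± 1.43 FPKM in control (limma adjusted p = 1.91e-07). Prickle1 and Vangl1 were 1.22-fold and 1.15-fold higher, the first not without control replicate 2 or 3 or day 1 replicate 3 (limma adjusted p 0.0768 to 0.100). On day 3 Vangl2 was 1.18-fold lower (limma adjusted p = 0.00642) and Celsr2, a polarity cadherin, 1.08-fold higher (limma adjusted p = 0.0456), a call lost without rescaling, with quantile normalization and without any 1 library other than control replicate 2 and day 1 replicate 1 (limma adjusted p 0.0522 to 0.148). It was also lost with no filter on low values (limma adjusted p = 0.0639), with only the 6 libraries compared (limma adjusted p = 0.0659) and with a replicate block (limma adjusted p = 0.0574). Between the days 3 were called, all higher on day 3, led by Celsr2 at 1.43-fold and Daam2 at 1.37-fold.

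Genes known as beta-catenin targets in other tissues went both ways, with 5 of 9 higher and 3 lower on day 1. The share of all genes was 31.1% in each direction. Ccn4, a matricellular protein, was 4.02-fold higher at 20.4 ± 1.01 FPKM on day 1 and 5.11 ± 0.419 FPKM in control (limma adjusted p = 1.79e-08), and the adhesion receptor Cd44 1.84-fold higher at 50.9 ± 0.464 FPKM on day 1 and 28.3 ± 0.689 FPKM in control (limma adjusted p = 9.95e-09). Myc was 1.64-fold lower at 7.11 ± 0.181 FPKM on day 1 and 12 ± 0.607 FPKM in control (limma adjusted p = 4.84e-07), Ccnd1, which encodes cyclin D1, 1.19-fold lower at 67.2 ± 3.56 FPKM on day 1 and 81.8 ± 3.94 FPKM in control (limma adjusted p = 0.000908), and Bambi, a decoy receptor of TGF-beta, 1.25-fold lower (limma adjusted p = 0.000298). On day 3, 2 were higher, Ccn4 at 1.31-fold and Cd44 at 1.14-fold, and 1 was lower, Myc at 1.19-fold (limma adjusted p 0.0109, 0.00303 and 0.00680). Between the days 3 were higher and 5 lower on day 3, with Myc 1.38-fold and Ccnd1 1.18-fold higher and Ccn4 3.08-fold and Cd44 1.60-fold lower.

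**Figure D5:**
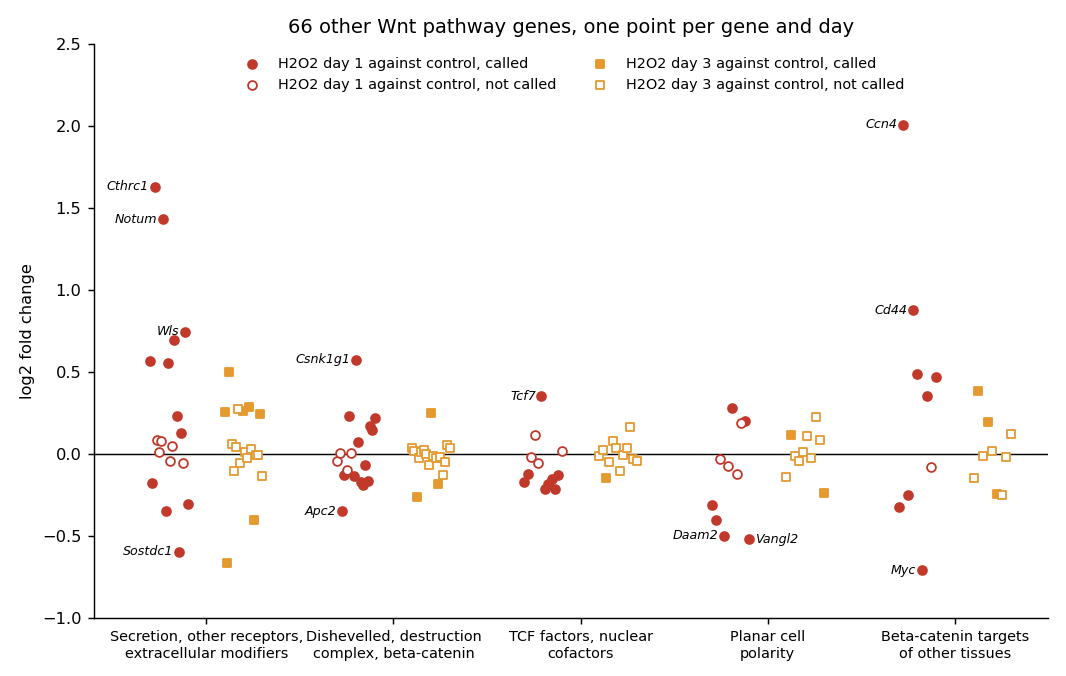
Log2 fold change against control of the 66 other Wnt pathway genes, by list, with day 1 as circles on the left and day 3 as squares on the right of each list; coloured marks were called and white marks were not. On day 1 Ccn4, Cthrc1, Notum and Cd44 stand highest and Myc lowest, while the day 3 marks lie closer to 0.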

How the data were processed

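Gene levels of 9 polyadenylated RNA libraries, 3 each of H2O2 day 1, H2O2 day 3 and control, were taken from the authors' deposited table of FPKM values, scaled by gene length and library total and not normalized between libraries. Reads were handled with FastQC 0.12.1, cutadapt 2.6 and STAR 2.7.3a, and DESeq2 was used, on GRCm38 (mm10), per the submitters' processing notes; for the counting program, annotation and strand setting the sources used here give nothing. Library totals worked out from the FPKM values were 23032594 to 38414668 reads, of which 99.9% lay in the genes listed.

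From there, FPKM values were rescaled by median-of-ratios factors (0.975 to 1.02) over the 12611 genes that averaged 1 FPKM or more, 0.1 was added, and log2 values of all 9 libraries were fitted together with limma 3.58.1 in R 4.3.3, with a trended prior and Benjamini-Hochberg adjustment at 0.05. Fold changes are on that log2 scale and understate those of low genes. FPKM steps gave back whole reads for 20349 of the 20350 genes above 0 (within 0.01 read), and limma-voom on these reads was an alternative. For the 22 members under 1 FPKM it was the test, over 15330 genes with at least 10 reads in at least 3 libraries. Replicates of a group differed beyond sampling noise (chi-square per degree of freedom 1.75 to 4.76), so none was taken for a repeat of another. The limma script was tested on simulated data.

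Members with a mean of at least 1 FPKM are named with their values, and lower ones are listed. In each of 5 pathway lists and each comparison, up to 2 called genes per direction with the largest fold changes are named, plus Ctnnb1, Wls, Tcf7l2 and Ccnd1. Members and lists were chosen with earlier results of these data known. Other alternatives were no filter, no rescaling, quantile normalization, the 6 libraries compared, a replicate block, and leaving out libraries. Gene positions and promoter sequences are from RefSeq GRCm38.p6 and exon overlaps from GENCODE vM21.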

Additional observations from a re-analysis of the deposited data

Results flagged for a closer look

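The difference from control was not the same on day 3 as on day 1 for 17 of the 26 Wnt family genes with a mean of 1 FPKM or more. This was by the limma test of the change itself, which called 56.2% of all genes tested. Because both differences use the same control libraries, that test is the comparison of the 2 peroxide groups. Those groups were harvested 24 h and 72 h after exposure, so time after exposure and time in culture cannot be told apart. The values here are the day 3 difference minus the day 1 difference on the log2 scale. This value was negative for Lef1 (-1.27), Dkk2 (-1.11), Wnt2 (-0.86), Wnt5a (-0.44), Fzd6 (-0.36), Wnt9a (-0.26) and Fzd1 (-0.20), all genes with higher levels on day 1 than in control. It was positive for Sfrp1 (0.77), Sfrp4 (0.34), Fzd4 (0.31), Fzd2 (0.30), Lrp5 (0.29), Wnt7b (0.27), Fzd8 (0.22), Dkk3 (0.22), Wnt5b (0.17) and Fzd7 (0.11). The limma adjusted p ran from 2.28e-08 for Sfrp1 to 0.0233 for Wnt5b. For Wnt5b the difference was no longer called without day 1 replicate 2 (limma adjusted p = 0.0885) or day 3 replicate 3 (limma adjusted p = 0.0652), and for Fzd7 without day 1 replicate 1 (limma adjusted p = 0.0545) or day 3 replicate 2 (limma adjusted p = 0.0520).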

How the results depend on the processing

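A pseudocount of 1 in place of 0.1 changed no call among the 78 results of the 26 Wnt genes in 3 comparisons, and no alternative turned the sign of a call among them. The day 1 counts of 7 higher and 11 lower became 7 to 8 and 10 to 11 when single libraries were left out, and 7 and 9 without control replicate 1 and day 3 replicate 2 together. The day 3 counts were less stable. The 5 higher genes became 8 with limma-voom on recovered reads (9 over 15330 genes), 3 without control replicate 1 and day 3 replicate 2 together, and 2 to 6 when single libraries were left out. The 3 lower genes became 0 without those 2 libraries together (at an unadjusted p under 0.05, 3360 of all 12611 genes passed) and 1 to 3 when single libraries were left out. With limma-voom over 15330 genes, which tests more members, the day 3 against day 1 counts of 10 higher and 7 lower became 16 and 11; they were 9 to 11 and 7 to 8 with single libraries left out. Of the other pathway genes, the 7 lower on day 3 became 11 and 13 with the 2 limma-voom fits, and 5 to 8 with single libraries left out; the 9 higher became 6 to 9. Their day 1 counts of 22 higher and 25 lower ran from 20 to 22 and 21 to 25, and their counts between the days, 19 higher and 23 lower, from 14 to 19 and 21 to 23.

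Same-numbered replicates did not deviate together (correlations of -0.079 to 0.111 between groups), so the numbers were not taken to pair the libraries. A fit with the replicate number as a block moved the day 3 count of higher Wnt genes to 6, with Fzd2 added (limma adjusted p = 0.0461), and changed no other call of the 26 Wnt genes; among the pathway genes named on day 3 it ended the calls of Celsr2 and Dvl2 (limma adjusted p 0.0574 and 0.0618). The 10 members without 10 reads in at least 3 libraries were not tested.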
